A study of Homo sapiens with 4 samples.

Results

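The Arp2/3 complex is the actin nucleator that starts a new filament on the side of an existing one and so builds the branched networks of lamellipodia, endocytic sites and moving endosomes. It joins the actin-related proteins ARP2 and ARP3, which stand in for the end of a new filament, to the ARPC1, ARPC2, ARPC3, ARPC4 and ARPC5 subunits. WASP-family proteins are among those that switch it on. ARPC1 and ARPC5 are each encoded by a pair of related genes in humans, so that cells can hold complexes of different composition. In glioblastoma cells the complex is known mainly for its part in protrusion and invasion.

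The 9 genes described here encode these subunits and were taken by name: *ACTR2*, *ACTR3*, *ARPC1A*, *ARPC1B*, *ARPC2*, *ARPC3*, *ARPC4*, *ARPC5* and *ARPC5L*. They are 9 of 46660 gene identifiers in the deposited table, and all 9 passed every filter on low counts. The question was whether the other 8 subunits moved with *ACTR2*, which encodes ARP2, after *FLI1* knockdown. FLI1 is a transcription factor of the ETS family.

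The data were 4 RNA-seq libraries of poly-A RNA from U87MG and U251MG, both established human glioblastoma cell lines. Each line gave 1 library of cells that had received a lentivirus with shRNA directed at *FLI1* (shFLI1) and 1 library of control cells given the pGreen vector with no insert, which the sample titles call shControl. All 4 populations were infected, selected with puromycin and collected as mixed stable cells, not as clones, and the U87MG cells are the stock whose glioblastoma of origin is unknown. With 1 library per arm in each line, a difference within a line has no replicate check and carries no p-value. For the same reason its 95% interval covers counting error only. The interval also takes reads as independent molecules, which PCR copies are not. The only replicated test takes the 2 lines as replicates of the knockdown.

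The libraries held between 12229780 and 28891055 counts, and in both lines the shFLI1 library was the deeper. *FLI1* itself was at 9.34 CPM (counts scaled to library size) in U87MG control and 2.34 in U87MG shFLI1, and at 12.1 in U251MG control and 3.71 in U251MG shFLI1 (shared log2 fold change -1.85, SE 0.25, adjusted p = 0.00698, edgeR's quasi-likelihood test over both lines). Of the glioblastoma and astroglial markers, *VIM*, *CD44*, *NES* and *SOX2* were counted in every library, *S100B* had at most 11 counts, and *GFAP* rose in the shared test (adjusted p = 0.00783). The leukocyte marker *PTPRC* had at most 5 counts in any library. *CD68*, a macrophage marker, had 47 and 12 counts in U87MG control and shFLI1 and 163 and 14 in U251MG, and fell in the shared test (adjusted p = 0.00354, edgeR's quasi-likelihood test). The part of this in the subunits' values was not tested. In the same libraries 19 of 19 tested interferon-stimulated genes fell, with a summed level of 7936 CPM in U87MG control against 1746 in shFLI1 and of 10649 in U251MG control against 1083 in shFLI1, and the part of this change in the values of the subunits was not tested.

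The subunit genes lie on chromosomes 1, 2, 3, 7, 9 and 12 (GRCh38, GENCODE gene spans). *ACTR2* spans 65227788 to 65271253 on the plus strand of chromosome 2, where *ACTR3* (113890063 to 113962596, plus strand) and *ARPC2* (218217141 to 218254356, plus strand) also lie. *ARPC1A* (99325898 to 99366262) and *ARPC1B* (99374249 to 99394816) are neighbours on the plus strand of chromosome 7. *ARPC3* lies on chromosome 12 (110434823 to 110450422, minus strand), *ARPC4* on chromosome 3 (9792495 to 9807101, plus strand), *ARPC5* on chromosome 1 (183620846 to 183635783, minus strand) and *ARPC5L* on chromosome 9 (124862130 to 124877733, plus strand).

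ETS factors recognise DNA around a GGAA core, so the 250 bases before the RefSeq start of each gene (GRCh38.p14) were searched on both strands for GGAA, for the longer CGGAAG, which contains it, and for CCGGAAGT, which contains both. A promoter was listed for 8 of the 9 genes, and *ARPC1B* had none in the table used. For *ACTR3* and *ARPC2*, with more than 1 listed, the promoter farthest upstream was searched. The shares over all promoters count every listed promoter and were not matched to the subunits in level or base content. GGAA was in 8 of 8, against 92.7% of all 35116 listed promoters. CGGAAG was in 5 of 8, against 16.5% of all promoters, and CCGGAAGT was in 1 of 8, that of *ARPC1A*, against 3.42%. The stretches of 30 bases around the CGGAAG match nearest the start are shown because the knocked-down factor belongs to the family that reads these letters. They are written along the gene's strand, and the capitals mark that match, CGGAAG or its reverse complement CTTCCG. The stretch of *ARPC3* holds another CTTCCG, farther from the start, which is left in lower case.
ACTR2, chr2:65227771-65227800, plus strand: gcccggcggcggCTTCCGgtcgggggaaaa
ACTR3, chr2:113889888-113889917, plus strand: tcccgctcggagCGGAAGggggagcgctgg
ARPC1A, chr7:99325862-99325891, plus strand: gcgccgtgtccaCTTCCGggatctgtcagc
ARPC2, chr2:218217132-218217161, plus strand: tgggtgtgagagCGGAAGtggccggctaga
ARPC3, chr12:110450338-110450367, minus strand: cgccccttccgtttcgCTTCCGcctacctc
The match began 48 bases before the RefSeq start in *ACTR2*, 34 in *ACTR3*, 24 in *ARPC1A*, 45 in *ARPC2* and 14 in *ARPC3*. The GENCODE spans given above place some starts elsewhere. By those spans the matches of *ARPC2* and *ARPC3* lie inside the gene, and that of *ACTR2* reaches the gene's first base. A match describes letters and not a bound site. The 5 genes with a match had shared log2 fold changes from -0.22 (*ARPC1A*) to 0.30 (*ACTR2*), and 0 of them passed the test described further on.

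*ACTR2* was the subunit with the highest ratio of shFLI1 to control in both lines, and the other 8 lay below it. In U251MG *ACTR2* stood at 145% of its control, while the other subunits stood between 79.1% (*ARPC5L*) and 108% (*ARPC1B*). In U87MG *ACTR2* stood at 106% of its control, while the other subunits stood between 63.7% (*ARPC1B*) and 95.3% (*ARPC5L*). None of the 9 passed the test over both lines. Each library is bulk RNA of a single cell line, so a change in every cell and a change in part of the cells cannot be told apart.

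**Figure D1:**
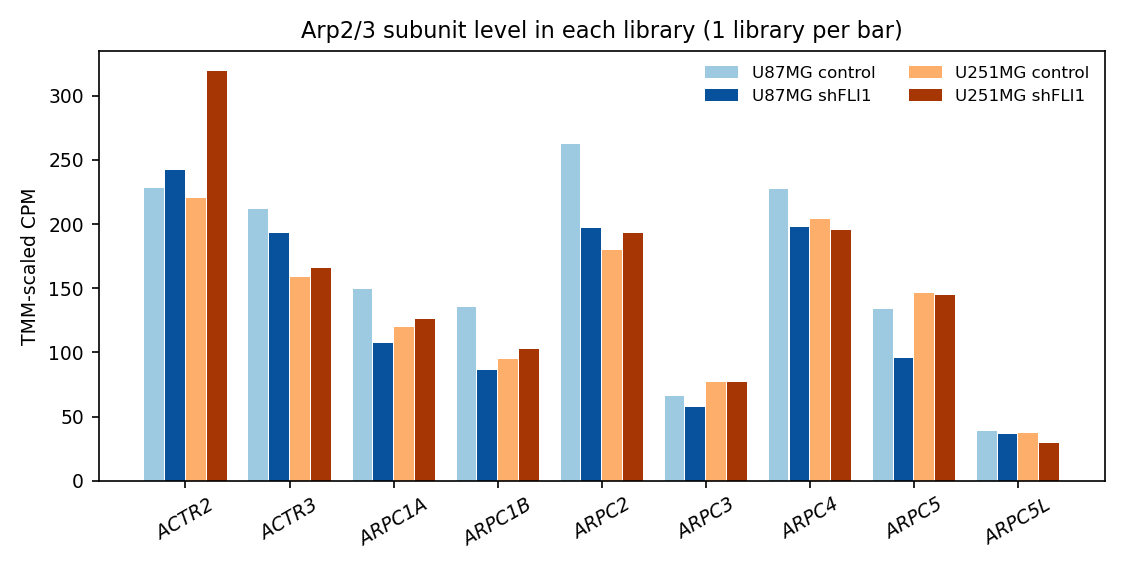
Level of each Arp2/3 subunit gene in CPM after scaling by trimmed mean of M-values (TMM), with 1 bar per library and no error bar because each bar is 1 library. *ACTR2* in U251MG shFLI1, at 319 CPM, is the highest bar, and *ARPC5L* has the lowest bar in every library, between 29.3 and 38.5 CPM.

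The actin-related proteins ARP2 and ARP3 form the template of the new filament. *ACTR2*, which encodes ARP2, had 2610 counts in U87MG control, 5391 in U87MG shFLI1, 3929 in U251MG control and 9552 in U251MG shFLI1. After scaling by TMM, these were 228, 242, 220 and 319 CPM, so the controls of the lines and U87MG shFLI1 lay close together and U251MG shFLI1 stood above all 3. The log2 fold change of shFLI1 against control was 0.09 in U87MG (95% counting interval 0.02 to 0.16) and 0.53 in U251MG (0.48 to 0.59). In U251MG this was above 95.4% of the 9772 genes with at least 100 counts in every library, and in U87MG above 62.4% of them.

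*ACTR3*, which encodes ARP3, had 2430, 4295, 2836 and 4966 counts in the same order of libraries, or 212, 193, 159 and 166 CPM. Its levels differed more between the lines than between the arms. The log2 fold change was -0.14 in U87MG (-0.21 to -0.06) and 0.06 in U251MG (-0.01 to 0.13). With total counts in place of TMM the U87MG value turned to 0.02, and with the authors' FPKM to 0.04. *ACTR3* shares sequence with *ACTR3B* and *ACTR3C*, so that the split of reads among the 3 genes is uncertain.

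ARPC1 is the WD-repeat subunit that meets the activating proteins, and its genes *ARPC1A* and *ARPC1B* showed among the lowest ratios in U87MG. *ARPC1A* had 1703, 2378, 2142 and 3782 counts, or 149, 107, 120 and 126 CPM in U87MG control, U87MG shFLI1, U251MG control and U251MG shFLI1. *ARPC1B* had 1549, 1918, 1697 and 3070 counts, or 135, 86.2, 95.2 and 103 CPM. For both genes U87MG control was the highest library and U87MG shFLI1 was the lowest, with the U251MG libraries between them. The log2 fold change of *ARPC1A* was -0.48 in U87MG (-0.57 to -0.39) and 0.07 in U251MG (-0.00 to 0.15). That of *ARPC1B* was -0.65 in U87MG (-0.75 to -0.55), the only subunit value past 1.5-fold in either line, and 0.11 in U251MG (0.02 to 0.19).

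ARPC2 and ARPC4 form the structural core of the complex and contact the mother filament. *ARPC2* had 3004, 4383, 3216 and 5791 counts, or 262, 197, 180 and 193 CPM. U87MG control was again the highest library, and the other 3 lay between 180 and 197 CPM. Its log2 fold change was -0.41 in U87MG (-0.48 to -0.35) and 0.10 in U251MG (0.04 to 0.16). *ARPC4* had 2600, 4405, 3641 and 5851 counts, or 227, 198, 204 and 195 CPM, a narrower spread than that of *ARPC2*. Its log2 fold change was -0.20 in U87MG (-0.27 to -0.13) and -0.06 in U251MG (-0.12 to -0.00), and the U251MG value turned to 0.01 with total counts and with the authors' FPKM. *ARPC4* overlaps the read-through gene *ARPC4-TTLL3*, with which reads can be shared.

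*ARPC3* encodes a peripheral subunit that binds ARP3. It had 756, 1274, 1372 and 2309 counts, or 66.0, 57.3, 77.0 and 77.1 CPM, with the U251MG libraries alike and both above the U87MG libraries. Its log2 fold change was -0.20 in U87MG (-0.34 to -0.07) and 0.00 in U251MG (-0.09 to 0.10).

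ARPC5 tethers ARP2 to the rest of the complex, and *ARPC5* and *ARPC5L* encode its alternative forms. *ARPC5* had 1534, 2120, 2609 and 4350 counts, or 134, 95.3, 146 and 145 CPM, with U87MG shFLI1 below the other 3 libraries. Its log2 fold change was -0.49 in U87MG (-0.59 to -0.40) and -0.01 in U251MG (-0.08 to 0.06). *ARPC5L* had 441, 816, 660 and 877 counts, or 38.5, 36.7, 37.0 and 29.3 CPM, with U251MG shFLI1 below the other 3. Its log2 fold change was -0.07 in U87MG (-0.24 to 0.10) and -0.34 in U251MG (-0.49 to -0.19), so the lower library was in the other line than for *ARPC5*.

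**Figure D2:**
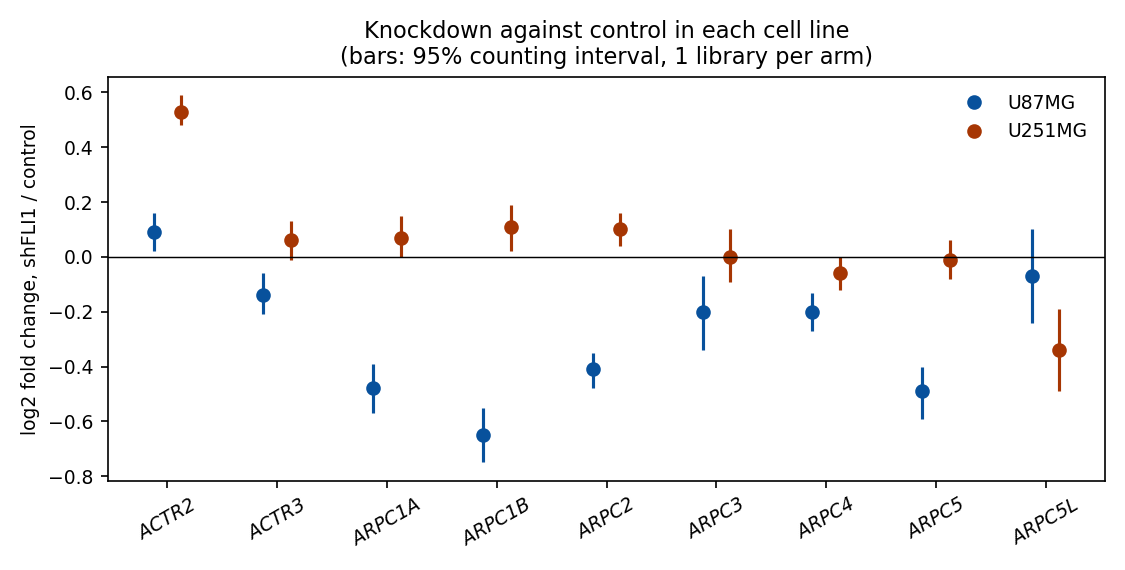
Log2 fold change of shFLI1 against control for each subunit gene in U87MG and U251MG, with bars for the 95% counting interval of 1 library against 1. *ACTR2* is the highest point in each line (0.09 and 0.53), and in U87MG the other 8 points lie between -0.65 and -0.07.

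By sign, 1 of 9 subunits was higher in shFLI1 in U87MG and 8 were lower, beside 55.6% higher and 44.4% lower of the 17355 genes counted at least 10 times in a U87MG library. In U251MG 6 were higher and 3 lower, beside 54.4% and 45.6% of 18222 genes. Of the 9772 genes with at least 100 counts in every library, 48.0% were higher and 52.0% lower in U87MG. In U251MG these shares were 49.2% and 50.8%. Intervals were clear of 0 for 1 higher and 7 lower subunits in U87MG, where 26.7% of genes were higher and 23.3% lower by the same rule. Among the 9772 genes with at least 100 counts in every library, which are nearer the subunits in level, these shares were 29.4% and 32.9%. In U251MG the intervals were clear of 0 for 3 higher subunits (*ACTR2*, *ARPC1B*, *ARPC2*) and 2 lower ones (*ARPC4*, *ARPC5L*), beside 24.6% higher and 23.1% lower of all genes and 31.2% and 32.5% of the better counted ones. Past 1.5-fold there was 1 subunit in U87MG, downwards, where 9.92% of genes were lower by this rule and 28.5% past it in either direction. Of the better counted genes these shares were 7.35% and 12.1%. In U251MG 0 subunits were past 1.5-fold in either direction, where 21.9% of all genes and 8.83% of the better counted ones were. Past 2-fold there were 0 of 9 in either line, beside 14.5% of all genes and 2.87% of the better counted ones in U87MG, and 9.76% and 2.18% in U251MG.

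The median log2 fold change of the 9 subunits was -0.20 in U87MG and 0.06 in U251MG, beside -0.01 in each line for the genes with at least 100 counts in every library. With total counts the U87MG median of those genes moved to 0.15 and that of the subunits to -0.04, with 3 of 9 subunits higher. In U251MG total counts moved the genes to 0.07 and the subunits to 0.13, with 8 of 9 higher. A change of scaling shifts every gene of a line alike, so it cannot change the order of the subunits. In the settings that could change the order, which were the authors' FPKM, the most counted RNA of each gene and counts thinned to equal depth, *ACTR2* also had the highest log2 fold change of the 9 in both lines. By the most counted RNA in U87MG the lead was slight, with *ACTR2* and *ARPC5L* both at 0.08 after rounding. Over all alternatives *ACTR2* lay between 0.04 and 0.26 in U87MG and between 0.52 and 0.61 in U251MG.

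The ratio of *ACTR2* counts to those of another subunit within a library needs no scaling between libraries. *ACTR2* had 1.07 counts for each *ACTR3* count in U87MG control and 1.26 in shFLI1, a log2 change of 0.22 (95% counting interval 0.13 to 0.32). In U251MG the same ratio went from 1.39 to 1.92, a log2 change of 0.47 (0.39 to 0.56). ARP2 and ARP3 enter each complex together, and in these libraries their messages stood in different proportions in the 2 arms. Against *ARPC1B* the ratio went from 1.68 to 2.81 in U87MG (log2 change 0.74, 0.62 to 0.86) and from 2.32 to 3.11 in U251MG (0.43, 0.33 to 0.53). Against *ARPC5L* it went from 5.92 to 6.61 in U87MG (0.16, -0.02 to 0.34), the only interval of these ratios that reached 0, and from 5.95 to 10.9 in U251MG (0.87, 0.72 to 1.03).

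The remaining 5 subunits gave log2 changes of the ratio from 0.29 (*ARPC3* and *ARPC4*) to 0.58 (*ARPC5*) in U87MG and from 0.43 (*ARPC2*) to 0.60 (*ARPC4*) in U251MG. *ARPC1A*, *ARPC2* and *ARPC5* were alike in the 2 lines, at 0.56 and 0.46, 0.50 and 0.43, and 0.58 and 0.54. Since every ratio holds the same *ACTR2* counts, the 8 ratios of a line are not independent. With *ACTR2* the highest subunit by fold change in each line, all these log2 changes had to lie above 0.

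**Figure D3:**
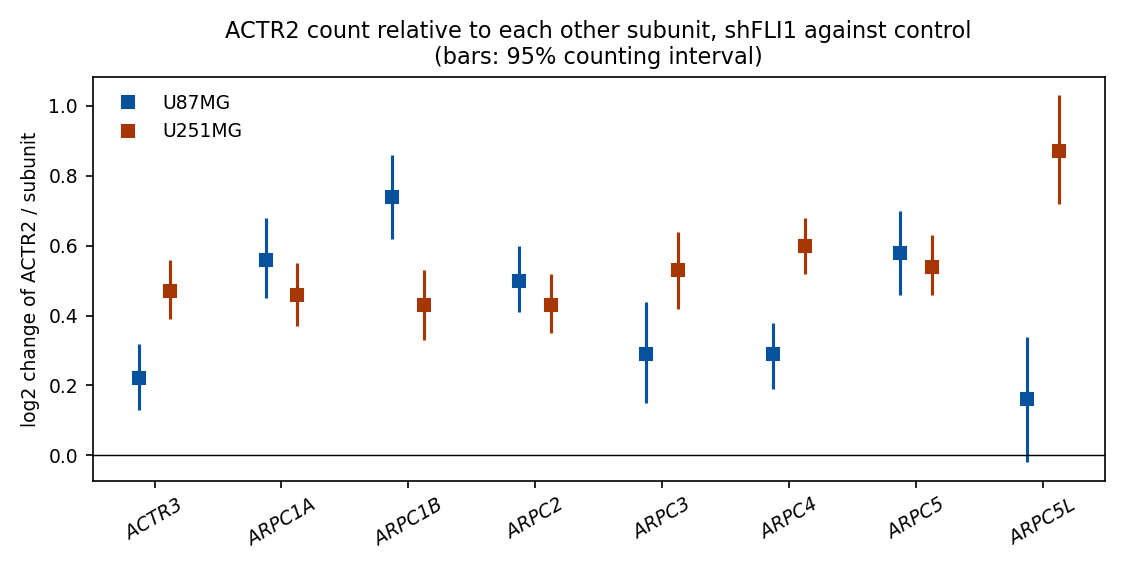
Log2 change, shFLI1 against control, of the ratio of *ACTR2* counts to the counts of each other subunit gene in U87MG and U251MG, with bars for the 95% counting interval. All points lie above 0, as they must where *ACTR2* has the highest fold change. They run from 0.16 for *ARPC5L* in U87MG to 0.87 for *ARPC5L* in U251MG.

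Over both lines, edgeR's quasi-likelihood test with the cell line as a block was fitted on 16649 genes, of which 509 (3.06%) passed an adjusted p of 0.05, 153 higher (0.919%) and 356 lower (2.14%) in shFLI1. Of the 9 subunits, 0 passed, 0 had an unadjusted p under 0.05, as 16.5% of all genes did, and DESeq2 also called 0. With total counts in this test 1 of 9 had an unadjusted p under 0.05, beside 18.0% of all genes. With limma on FPKM 1 of 9 did, beside 12.9%. *ACTR2* had a shared log2 fold change of 0.30 (SE 0.17, 95% interval -0.09 to 0.68, adjusted p = 0.431 by edgeR's quasi-likelihood test), and over the alternatives its adjusted p ranged from 0.206 to 1.00. The other 8 subunits all had shared values below 0, from -0.28 for *ARPC1B* (SE 0.19, -0.72 to 0.15, adjusted p = 0.511) to -0.05 for *ACTR3* (SE 0.15, -0.39 to 0.28, adjusted p = 0.904). With total counts *ACTR3* and *ARPC3* turned to 0.08 and 0.02. These intervals leave room for a change of either sign in each subunit.

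With TMM scaling the log2 fold changes differed between the lines by more than counting error for every subunit, although with 1 library per arm this difference has no replicate test. The difference, U251MG minus U87MG, was largest for *ARPC1B*, at 0.76 (95% counting interval 0.63 to 0.89), followed by *ARPC1A* at 0.55 (0.43 to 0.67), *ARPC2* at 0.51 (0.42 to 0.60), *ARPC5* at 0.48 (0.36 to 0.60) and *ACTR2* at 0.44 (0.36 to 0.53). The intervals of the last 4 of these overlap, and that of *ARPC1B* overlaps that of *ARPC1A*. *ACTR3*, *ARPC3* and *ARPC4* differed by 0.20, 0.21 and 0.13, and with total counts the intervals of *ARPC3* (-0.04 to 0.28) and *ARPC4* (-0.05 to 0.14) reached 0. *ARPC5L* was the only subunit with the difference below 0, at -0.27 (-0.49 to -0.05).

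The controls of the 2 lines also differed in subunit levels. U251MG control was below U87MG control for *ARPC2* (log2 difference -0.54, -0.61 to -0.47), *ARPC1B* (-0.51, -0.61 to -0.41), *ACTR3* (-0.42, -0.49 to -0.34), *ARPC1A* (-0.31, -0.40 to -0.22) and *ARPC4* (-0.15, -0.23 to -0.08). It was above for *ARPC3* (0.22, 0.09 to 0.35) and *ARPC5* (0.13, 0.04 to 0.22). *ACTR2* (-0.05, -0.12 to 0.02) and *ARPC5L* (-0.06, -0.23 to 0.12) were at levels that counting error does not separate. This comparison shares the U87MG control library with that of the knockdown in U87MG.

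Levels of different subunits were compared by the authors' FPKM (fragments per kilobase and mapped library size), summed over the RNAs of a gene. *ARPC2* and *ARPC4* were the highest subunits in every library, *ARPC2* at 212, 176, 154 and 173 FPKM and *ARPC4* at 180, 174, 172 and 173 FPKM. *ARPC1A* (114, 87.5, 115 and 115 FPKM), *ARPC3* (90.8, 86.7, 113 and 119) and *ARPC1B* (101, 71.5, 75.6 and 85.4) lay below them. *ACTR2*, at 61.2, 73.5, 62.8 and 95.8 FPKM, was below *ARPC1B* in both controls and above it in both shFLI1 libraries. *ACTR3* was *ACTR3* at 33.4, 34.4, 26.6 and 28.7 FPKM, so that ARP2 message exceeded ARP3 message per length in all 4 libraries. *ARPC5L* was the lowest, at 21.2, 21.9, 21.6 and 18.6 FPKM. With 1 library per value, no spread between replicates can be set beside this order, and FPKM gives no counting interval.

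*ARPC5*, at 82.8, 60.0, 89.4 and 91.3 FPKM, has the least certain place in this order. Its main mRNA, NM_005717, held between 76.3% and 79.3% of the gene's counts but between 16.5% and 18.7% of its FPKM (13.7, 11.1, 16.3 and 17.1), and a short RNA held most of the rest. Taken by its most counted RNA alone, *ARPC5* ranked 8 of 9 in every library, in place of 5 to 7 by the summed FPKM. For *ACTR2*, by contrast, NM_005722 held between 99.3% and 99.7% of counts.

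The RNAs of *ACTR3* differed between the lines. NM_001277140 had 0 counts in U87MG control, which by the floor of 3 counts allows up to 0.123% of the gene's counts (Clopper-Pearson upper limit 0.152%), and 11.54 estimated counts in U87MG shFLI1 (0.269%, Clopper-Pearson limits 0.144 and 0.488). The U251MG libraries held 358.2 estimated counts of it in control (12.6%, 11.4 to 13.9) and 594.7 in shFLI1 (12.0%, 11.1 to 12.9). The share was thus higher in U251MG than in U87MG and alike in the 2 arms of U251MG. For *ARPC5L*, NM_030978 held 50.9%, 56.5%, 50.4% and 42.6% of counts and XM_011519067 held 42.1%, 35.7%, 42.3% and 50.8%, so that the leading RNA of U251MG shFLI1 was not that of the other 3 libraries. Counts of single RNAs are estimates that split reads between overlapping transcripts, and the intervals do not cover that split.

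*ARPC1A* exceeded *ARPC1B*, and *ARPC5* exceeded *ARPC5L*, in every library. *ARPC1B* made up 47.0% of the summed FPKM of *ARPC1A* and *ARPC1B* in U87MG control, 45.0% in U87MG shFLI1, 39.7% in U251MG control and 42.7% in U251MG shFLI1. The count ratio of *ARPC1B* to *ARPC1A* had a log2 change of -0.17 (-0.31 to -0.04) in U87MG and 0.04 (-0.08 to 0.15) in U251MG. *ARPC5L* made up 20.4%, 26.8%, 19.4% and 16.9% of the summed FPKM of *ARPC5* and *ARPC5L* in the same order. Its count ratio to *ARPC5* had a log2 change of 0.42 (0.23 to 0.61) in U87MG and -0.33 (-0.49 to -0.17) in U251MG, opposite in sign in the 2 lines. By the RNA of each gene most counted over the 4 libraries, the *ARPC5L* shares were 37.4%, 46.4%, 33.5% and 25.3%. In U251MG shFLI1 that RNA, NM_030978, was not the library's own most counted one, and with XM_011519067 in its place the share there was 39.4%, no longer the lowest.

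**Figure D4:**
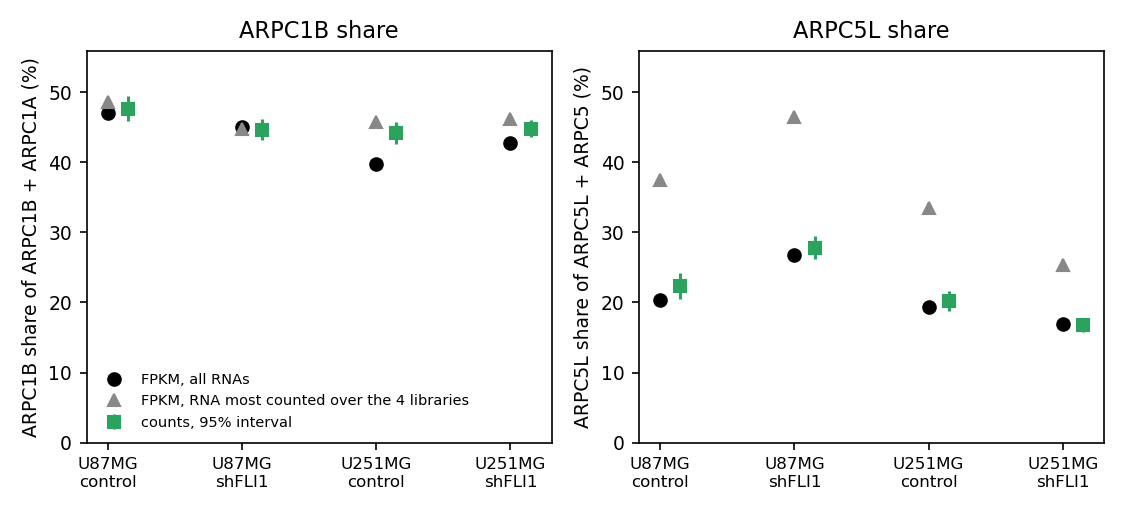
Share of *ARPC1B* in *ARPC1A* plus *ARPC1B* and of *ARPC5L* in *ARPC5* plus *ARPC5L*, in percent, in each library by summed FPKM, by the FPKM of the RNA most counted over the 4 libraries and by counts with their 95% interval. The *ARPC5L* share is highest in U87MG shFLI1 (26.8% by summed FPKM) and lowest in U251MG shFLI1 (16.9%) by the measures plotted, although with that library's own most counted *ARPC5L* RNA it would be 39.4%.

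The related genes outside the set were low. *ACTR3B*, which encodes an alternative ARP3, was at 6.85, 8.88, 4.80 and 7.21 FPKM, and its log2 fold change was 0.22 for U87MG (-0.09 to 0.54) and 0.50 for U251MG (0.20 to 0.81) (shared adjusted p = 0.459, edgeR's quasi-likelihood test). *ACTR3C* was at or below 0.400 FPKM in every library, and *ARPC4-TTLL3* was between 7.84 and 11.8. Of these 3 genes, 0 passed the shared test.

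To ask whether the subunits lay near *ACTR2*, the distance between genes was measured in the plane of the log2 fold changes in U87MG and in U251MG. The nearest subunit was *ACTR3*, at 0.52, and 34.3% of 9771 genes were nearer to *ACTR2* than it was. *ARPC3* followed at 0.61 with 46.1% of genes nearer, and the other 6 lay between 0.66 (*ARPC2* and *ARPC4*) and 0.88 (*ARPC5L*). The median distance of the 8 subunits was 0.70, beside 0.63 for all genes, so 2 of the 8 were nearer than the median gene. Over the 4 libraries, the genes most like *ACTR2* in centred log2 CPM were *PANK3*, *FECH*, *SVIL*, *DPY19L3* and *TMEM80* (distances 0.018 to 0.058 among 9691 genes), with U251MG log2 fold changes from 0.46 to 0.57. These genes were picked by that distance, so their fold changes near that of *ACTR2* follow from the choice. By the same distance, the subunits ranked from 2810 (*ARPC3*) to 6809 (*ARPC5L*).

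The genes of the pathway around the complex were counted in the same test. Of 91 listed actin genes outside the complex, 83 were tested, of which 1 rose and 0 fell. The gene that rose was *CYFIP2*, a subunit of the WAVE complex that links Rac to Arp2/3. It had 243, 1270, 473 and 1481 counts, or 21.2, 57.1, 26.5 and 49.5 CPM, with both shFLI1 libraries above both controls (shared log2 fold change 1.14, adjusted p = 0.0109, edgeR's quasi-likelihood test). The other 8 tested WAVE genes did not pass, among them *WASF2* (-0.31 and -0.26 on the log2 scale for U87MG and U251MG), *NCKAP1* (0.22 and 0.24) and *ABI1* (0.14 and 0.30). The lists were chosen with earlier results of these data known, and each count stands beside the 3.06% of all tested genes that passed.

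Among the other activators, 0 of 7 tested genes of the WASP family and its partners passed, with medians of -0.09 in U87MG and -0.04 in U251MG. *JMY*, which both activates Arp2/3 and nucleates actin itself, was at 0.45 and 0.47 in the 2 lines, and *WHAMM*, which acts on internal membranes, was at -0.39 and -0.55. *WIPF1*, which encodes a WASP-binding partner, was at -0.65 and -0.31. Of the WASH complex, which drives Arp2/3 on endosomes, 0 of 6 passed, with medians of 0.06 and 0.30, and its subunit *WASHC5* had log2 fold changes of 0.43 and 0.64 (shared adjusted p = 0.0980, edgeR's quasi-likelihood test). *WASHC1*, its activating subunit, was at 0.50 and 0.32 and *WASHC3* at -0.40 and -0.17. The branch stabiliser cortactin, *CTTN*, was the 1 tested gene of its list and did not pass (-0.07 and 0.07).

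Of the genes that inhibit the complex or take branches apart, 0 of 7 passed, with medians of -0.29 and 0.10. Among them *PICK1* was at -0.59 and -0.29, *ARPIN*, which encodes a direct inhibitor of the complex, at -0.44 and -0.11, and the debranching factor *GMFB* at 0.19 and 0.42. Of the GTPases and exchange factors upstream, 0 of 12 passed, with medians of -0.21 and -0.04. *VAV2* was at -0.59 and -0.44 (shared adjusted p = 0.0869, edgeR's quasi-likelihood test), *DOCK1* at 0.40 and 0.62 and *TIAM1* at 0.30 and 0.99, all exchange factors that act on Rac.

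Of the actins and their filament partners, 0 of 14 passed, although 12 of 14 were lower in shFLI1 in U87MG and 7 of 14 in U251MG, with medians of -0.24 and 0.03. *ACTB*, the cytoplasmic beta-actin, was at 8478, 5584, 5937 and 4614 CPM, lower in shFLI1 in both lines (-0.60 and -0.36, shared adjusted p = 0.375, edgeR's quasi-likelihood test). *TMSB4X*, which encodes the actin-monomer buffer thymosin beta-4, was at -0.70 and -0.22, and the cyclase-associated protein gene *CAP2* at 0.23 and 0.48. The list's median was lower in U87MG than in U251MG, as were those of the subunits and of every other actin list. A difference between lists was not tested. Of the formins and other nucleators 0 of 17 passed (medians 0.11 and 0.18), with the filament-elongating Ena/VASP proteins *ENAH* at 0.46 and 0.55, *EVL* at 0.70 and 0.28 and *VASP* at -0.19 and -0.12, and the formin *DIAPH2* at 0.29 and 0.30. Of the actin-related proteins outside the complex 0 of 7 passed (medians -0.19 and 0.12), with the chromatin-remodeller subunit *ACTR8* at 0.11 and 0.12 and *ACTRT3* at -0.30 and -0.04.

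**Figure D5:**
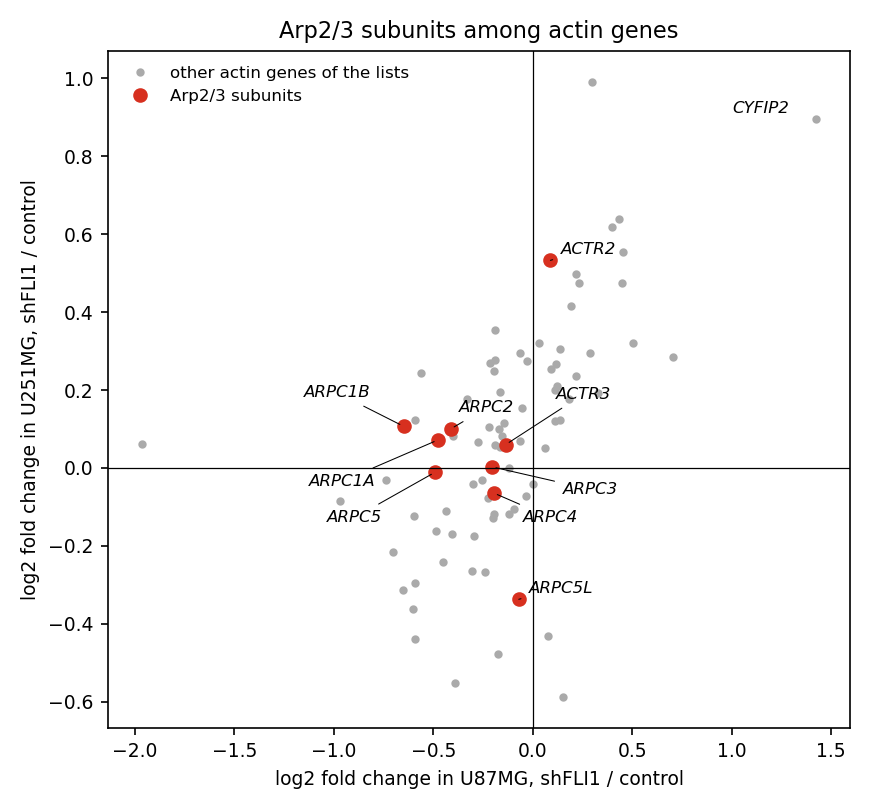
Log2 fold change of shFLI1 against control in U251MG (vertical axis) against that in U87MG (horizontal axis) for the 9 Arp2/3 subunit genes and those other listed actin genes that had at least 100 counts in every library. *ACTR2* is the only subunit above 0.11 on the vertical axis, and *CYFIP2*, the 1 other actin gene that passed the shared test, lies at 1.42 and 0.90.

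The fold changes moved with transcript length across all genes. Among genes with at least 100 counts in every library, the median log2 fold change of those under 1000 bases was -0.15 for U87MG and -0.05 for U251MG, and of those of 5000 bases or more 0.11 and 0.10. The canonical transcripts of the subunits ran from 946 bases (*ARPC3*) to 7266 (*ARPC5*). Set against genes of similar length, with lengths that differed by at most 25% of the shorter, *ACTR2* (3783 bases) was 0.11 above their median in U87MG and 0.56 above in U251MG, where 97.2% of these genes lay below it. *ARPC1B* (1511 bases) was at -0.54 and 0.18 on this scale and *ARPC5*, a long transcript, at -0.59 and -0.09. *ARPC3* and *ARPC4* came to -0.06 and -0.07 in U87MG, nearer 0 than their uncorrected -0.20. The part of length in the subunits' values was not tested further.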

How the data were processed

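The authors purified poly-A RNA and aligned its reads with HISAT2 to GRCh38; StringTie gave their FPKM. The submitters' labels name patch p13, and the labels and the methods name different library kits. The deposited table gives an estimated count, not normalized, and the authors' FPKM for each RNA. The tool behind the counts is not given in the sources used here. A further 10 value columns, TPM and means, were not used. Counts of 185042 linear RNAs were summed by gene identifier and rounded. The 31346 circular RNAs carry no gene identifier and were left out.

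Counts were scaled by TMM (edgeR 4.0.16, R 4.3.3), and log2 fold changes within a line used a prior count of 2 with Clopper-Pearson intervals. Intervals of ratios and of differences between lines used the Poisson error of the counts. The shared test was edgeR's quasi-likelihood test with the cell line as a block, filterByExpr and Benjamini-Hochberg adjustment. Because 1 degree of freedom remains for the residuals, its precision rests largely on the spread shared across genes. Alternatives used DESeq2 1.42.0, limma 3.58.1, other scalings and filters, FPKM and thinned counts. Differences between lines under other scalings, and shares by each library's own most counted RNA, were added after the data were seen. The shared test was also run on simulated counts with log2 changes of 2, larger than those of the subunits. That run does not bear on the within-line intervals, ratios or shares.

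Members and lists were chosen with earlier results of these data known. Besides the members and *FLI1*, the rule named list genes past the shared test, up to 3 others per list moving the same way in both lines, and the 5 genes most like *ACTR2*. Interferon-stimulated genes are given as a count, and *ACTR3C*, *ARPC4-TTLL3*, *CTTN*, *VASP* and the markers stand outside the rule and were named with their values seen. Of the immune markers, 1 is not reported here.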

Additional observations from a re-analysis of the deposited data

Results flagged for a closer look

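The log2 fold changes of 5 subunits had opposite signs in the 2 lines, lower in shFLI1 in U87MG and at or above 0 in U251MG. They were -0.14 in U87MG and 0.06 in U251MG for *ACTR3*, -0.48 and 0.07 for *ARPC1A*, -0.65 and 0.11 for *ARPC1B*, -0.41 and 0.10 for *ARPC2*, and -0.20 and 0.00 for *ARPC3*. With 1 library per arm in each line the difference was not tested, and the U251MG intervals of *ACTR3*, *ARPC1A* and *ARPC3* reach 0.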

How the results depend on the processing

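Of 162 values within a line under the alternatives, 127 stayed within the counting interval, 29 left it without such a change of sign, and 6 changed the sign of a value whose interval excluded 0, and of 63 shared values 4 changed sign. These 6 were *ACTR3* in U87MG (0.02 with total counts, 0.04 with FPKM at either pseudocount) and for *ARPC4* in U251MG (0.01 in each of these). Values whose interval spanned 0 also changed sign, among them *ARPC5L* in U87MG (0.09 with total counts, 0.04 and 0.05 with FPKM, 0.08 by the most counted RNA) and *ARPC5* in U251MG (0.06, 0.03 and 0.03 with total counts and FPKM). In the shared fit the sign changed for *ACTR3* (0.08 with total counts, 0.07 with limma on FPKM) and *ARPC3* (0.02 and 0.00). Subunits higher in U87MG numbered 3 with total counts and with FPKM at either pseudocount, and 2 by the most counted RNA, in place of 1. Genes past the shared threshold numbered 1303 when genes with at least 1 count were kept, in place of 509, and 0 with limma on FPKM (2155 at an unadjusted p under 0.05) and 0 without the cell line block (725), and subunits past it numbered 0 under every alternative. When a gene needed 100 counts in a library of the line, 15.4% of genes in U87MG and 11.5% in U251MG were over 1.5-fold, and 4.88% and 3.30% over 2-fold. When it needed 1 count, 40.3% in U87MG and 36.9% in U251MG were over 1.5-fold, and 17.1% and 14.2% over 2-fold. The *ARPC1B* share in U251MG was 44.2% in control and 44.8% in shFLI1 by counts, and 45.8% and 46.1% by the most counted RNA. The *ARPC5L* share in U87MG control was 22.3% by counts, and by the most counted RNA it was 37.4% there, 46.4% in U87MG shFLI1, 33.5% in U251MG control and 25.3% in U251MG shFLI1. By each library's own most counted RNA the last was 39.4%, and the other shares were as by the RNA most counted over the 4 libraries. A filter changed the number of genes tested, and a scaling shifted all genes of a line alike. For the other alternatives the cause was not tested. The cell line as a block pairs the arms within each line, the labels carry no replicate numbers, and no replicate could be left out of 1 library per arm. The shallowest subunit, *ARPC5L*, with 441 counts in U87MG control, had the widest interval.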
